A study of Danio rerio with 3 samples.

Results

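The outermost 1 Mb at each end of 24 zebrafish chromosomes was compared with the stretch of chromosome between the ends, using called regions of 2 histone marks. A called peak belonged to an end when its summit lay in the first 1 Mb or within 1 Mb of the last region on that chromosome in any library, on chromosomes 1 to 25 without chromosome 4. Touching or overlapping peaks of a library were then merged into regions. The 48 ends held 4812 of the 123094 regions of the 3 libraries, with 835 regions of H3K27me3, 1727 of H3K27ac replicate 1 and 2250 of H3K27ac replicate 2. The interiors held 15574, 41979 and 55537 regions in the same order. The ends span 48 Mb and the interiors 1219 Mb, so the ends are 3.79% of the length compared. The choice of ends used positions and no levels. On the right, however, the end was set by the last called region, so each right end holds a region by definition. Any sequence beyond that region is left out, so counts at right ends are not fully independent of the choice.

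All libraries came from posterior trunk of wild-type zebrafish embryos at 16 hours post fertilisation, and no group carried a mutation, transgene or treatment. CUT&RUN, in which a nuclease tethered to an antibody cuts out the DNA around a histone mark, was done with an antibody against H3K27me3 in 1 library and against H3K27ac in 2 libraries. The tissue is a mixture of cell types, and a region marked in a few cells cannot be told apart from one marked weakly in many. The study is about regulation around the cloaca, per its title. Whether the H3K27ac replicates were separate clutches is not in the labels, so their spread may be technical, and H3K27me3 has no replicate. All coordinates are of danRer11. Neither an annotation nor a genome sequence of danRer11 was used here, and regions are therefore named by position only.

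H3K27ac, acetylation of lysine 27 on histone H3, is placed by the p300 and CBP enzymes at active promoters and enhancers. H3K27me3, trimethylation of the same lysine, is placed by Polycomb repressive complex 2 and lies over silenced developmental genes, often in broad domains. The same lysine cannot carry both, so where both marks are present at a site in a tissue, they lie on different histones, alleles or cells. Overlap of called regions does not by itself show that both are present. Chromosome ends carry telomere repeats and, beside them, repeated sequence on which short reads are hard to place and assemblies are often incomplete.

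Depth was read from the peak caller's genome-wide background, since read totals were not used here. This background, solved from the authors' fold and p-value, was 0.370 tags for H3K27me3 and 0.806 and 1.10 tags for replicates 1 and 2 of H3K27ac. The level of a region is given below as its 10-kb tag density, the number of tags in the 10-kb window around the summit divided by the genome-wide number, with a lowest possible value of 1. The deposited fold instead compares the summit with the window around it, so it falls as the window fills. Both zones come from the same libraries, and each ratio of ends over interior was formed within a library. No test was run on these ratios, which are 2 values for H3K27ac and 1 for H3K27me3. Ratios are given with the spread over the 2 H3K27ac libraries where there is one, and exact 95% intervals cover counting error only. Regions beside each other are not independent, nor are reads that lack molecular identifiers.

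H3K27me3 regions were denser at the ends than in the interiors, and the excess of H3K27ac depended on how much of its longer lists was used. H3K27me3 had 17.4 regions per Mb at the ends and 12.8 in the interiors, a ratio of 1.36 with an exact interval of 1.27 to 1.46. H3K27ac replicate 1 had 35.98 and 34.4 regions per Mb, and replicate 2 had 46.9 and 45.6. The ratio for H3K27ac was 1.04 ± 0.0112 (SD, n = 2), so the excess over the whole lists was a few percent. The H3K27ac lists were also cut by −log10 q to the length of the H3K27me3 list. That list was itself not cut, so its ratio of 1.36 could not change. The H3K27ac ratio was then 1.24 ± 0.0590 (SD, n = 2), with 1.20 in replicate 1 and 1.28 in replicate 2. With a −log10 q of at least 5 it was 1.22 ± 0.0524 (SD, n = 2), and that of H3K27me3 was 1.47. H3K27ac intervals found in both replicates numbered 24.2 per Mb at the ends and 20.8 per Mb in the interiors. They covered 10.2 and 8.75 kb per Mb. Covered length over the whole lists gave the same order as the counts. H3K27me3 regions covered 9.35 kb per Mb of end and 6.75 kb per Mb of interior, whereas H3K27ac covered 15.3 and 14.2 kb per Mb in replicate 1 and 21.8 and 20.6 in replicate 2. Median widths were nearly equal in the 2 zones, at 392 and 389 bp for H3K27me3, so the added length of H3K27me3 came as more regions rather than wider ones.

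The excess of H3K27me3 was concentrated in the outermost 250 kb. That strip held 310 of the 835 regions, or 25.8 per Mb, and the next 3 strips of 250 kb held 12.3, 16.2 and 15.3 per Mb. In steps of 50 kb the density was 28.3, 27.1, 25.8, 25.8 and 22.1 regions per Mb up to 250 kb and then 12.1 in the step after it. The step is visible in the plot of regions by distance from the end. Against the interior the outermost 250 kb had a ratio of 2.02 with an exact interval of 1.80 to 2.26, and the remaining 750 kb of the ends had a ratio of 1.14. The 250-kb strip was chosen after seeing these counts. On the right its outer edge was the last region of any library, so its counts there partly follow from that choice.

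**Figure D1:**
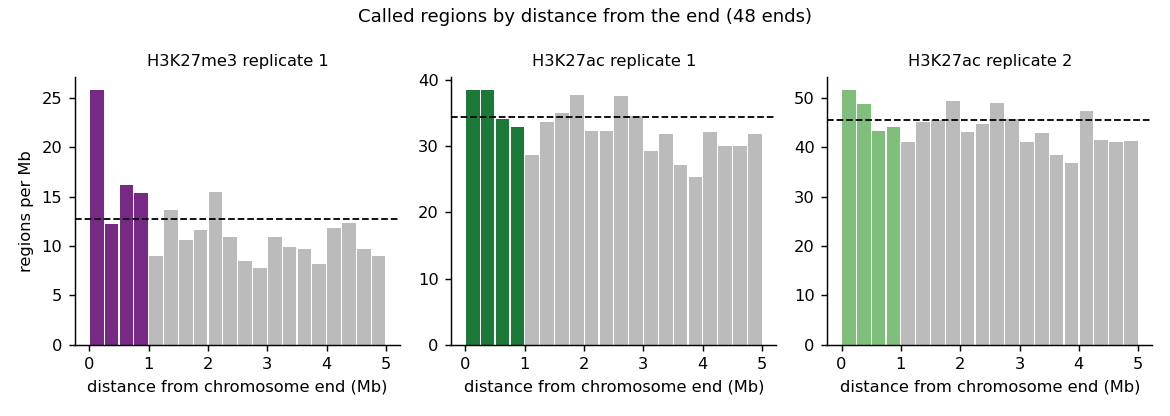
Called regions per Mb (y axis) against distance from the chromosome end in Mb (x axis), in steps of 250 kb summed over 48 ends, for each library. Coloured bars are the outermost 1 Mb, grey bars the next 4 Mb, and the dashed line is the mean of the whole interior. The first H3K27me3 bar stands at 25.8 against an interior mean of 12.8, and the first H3K27ac bars stand at 38.5 and 51.6 against 34.4 and 45.6.

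The H3K27me3 regions of the outermost 250 kb were spread over 47 of 48 ends, but unevenly. Between 0 and 26 regions lay in the strip, with a median of 5. The right end of chromosome 5 held 26, the left end of chromosome 14 and the right end of chromosome 21 held 18 each, the right end of chromosome 13 held 17 and the right end of chromosome 3 held 15. These 5 ends held 94 regions, 30.3% of the strip. Without them the other ends still had 20.1 regions per Mb, a ratio to the interior of 1.57. The strip was denser than the interior of its own chromosome at 32 of 48 ends and denser than the other 750 kb of the same end at 29 of 48. H3K27ac in the same strip had 38.5 and 51.6 regions per Mb, ratios of 1.12 and 1.13, and exceeded its own interior at 27 and 30 ends. H3K27ac intervals found in both replicates numbered 28.2 per Mb in the strip and 20.8 per Mb in the interiors. How often an interior stretch of 250 kb exceeds the mean of its own chromosome was not computed, so these counts of ends have no baseline.

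The level around H3K27ac regions was lower at the ends. In replicate 1 the median 10-kb tag density was 2.28 at the ends and 3.23 in the interiors, and in replicate 2 it was 2.00 and 2.78. The ratio was 0.713 ± 0.00796 (SD, n = 2), so the difference was many times the spread between the libraries. It held within 23 of 24 chromosomes in replicate 1 and within 21 of 24 in replicate 2. Chromosome 22, whose left end is described below, had the highest ratio of ends to interior, 1.05 in replicate 1 and 1.20 in replicate 2. The lowest ratios were 0.50 on chromosome 2 in replicate 1 and 0.45 on chromosome 5 in replicate 2.

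The lower level was not particular to the outermost 1 Mb. The median density in replicate 1 was 2.28, 2.28, 2.38, 2.26 and 2.41 in successive 1-Mb steps from the end, then 2.70 in the sixth and 3.57 in the step from 17 Mb. In replicate 2 it was 2.00, 1.85, 2.03, 1.80 and 2.02 in the first steps and 3.27 in the step from 17 Mb. The ends therefore sit at the low side of a slope that runs over many Mb. Set against the next 1 Mb alone, the ratio was 1.04, with 1.00 in replicate 1 and 1.08 in replicate 2. Set against positions beyond 5 Mb it was 0.673.

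**Figure D2:**
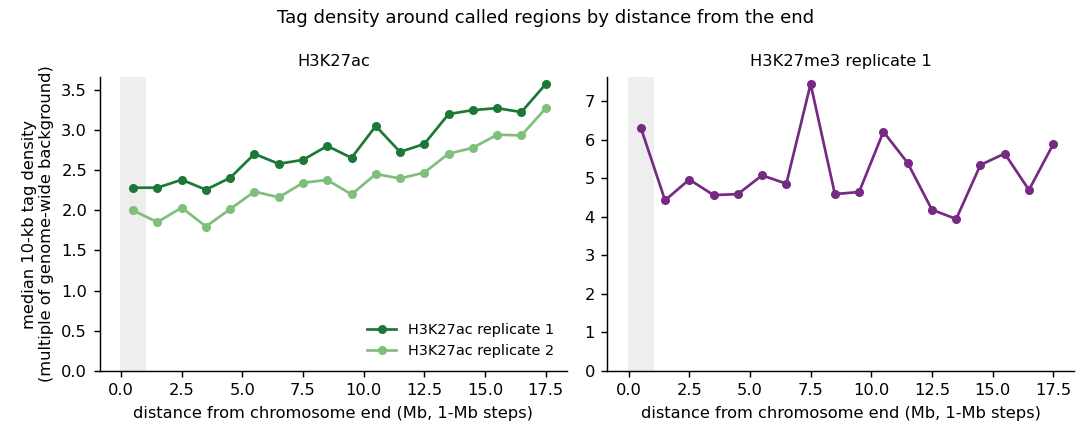
Median 10-kb tag density of the called regions, as a multiple of the genome-wide background (y axis), against distance from the chromosome end in 1-Mb steps (x axis), with the outermost 1 Mb shaded. H3K27ac starts at 2.28 and 2.00 and reaches 3.57 and 3.27 in the last step. H3K27me3 starts at 6.32, is 4.43 in the next step and has no steady slope.

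Both tails of the H3K27ac distribution shifted. Over both zones 5.18% of replicate 1 regions and 4.84% of replicate 2 regions had a density over 10. At the ends 9 of 1727 regions (0.521%) and 10 of 2250 regions (0.444%) did, against 5.37% and 5.02% in the interiors. Regions of such density lay at only 4 of the 48 ends in each replicate, while 37.6% and 42.8% of 1210 interior windows of 1 Mb held at least 1. In the adjoining stretch from 1 to 2 Mb the shares over 10 were 1.97% and 1.84%, between those of the ends and of the whole interior. At the other tail, 3.76% and 9.04% of all regions stood at the lowest value of 1. At the ends 117 regions (6.77%) of replicate 1 and 369 (16.4%) of replicate 2 did, against 3.64% and 8.75% in the interiors. The adjoining stretch had more, 8.33% and 18.7%, so the low tail was not particular to the outermost 1 Mb. The deeper library has more regions at the lowest value in both zones, and the ratio of the shares was 1.87 ± 0.00990 (SD, n = 2).

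Summit height followed the same direction as the window, and the deposited fold the opposite one. The median pileup at the summit was 11 tags at the ends and 13 in the interiors in replicate 1, and 12 and 14 in replicate 2. The authors' fold had a median of 4.17 at the ends and 3.75 in the interiors in replicate 1, and 3.82 and 3.48 in replicate 2. It was higher at the ends within 24 and 23 of the 24 chromosomes. The median −log10 q was 3.82 and 3.42 in replicate 1 and 3.62 and 3.36 in replicate 2. Against the whole interior, H3K27ac regions of the ends thus had fewer tags at the summit, fewer tags around it, and a slightly higher contrast between the 2. In the adjoining stretch from 1 to 2 Mb the median pileup was 11 in both replicates, and the fold was 3.94 and 3.78. The lower pileup was therefore not particular to the outermost 1 Mb, and the fold of that stretch lay between those of the ends and the interiors.

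The level around H3K27me3 regions differed little between the ends and the whole interior and had no settled direction. The median density was 6.32 at the ends and 6.05 in the interiors, a ratio of 1.04. The 95% interval of the end median, divided by the interior median, ran from 0.884 to 1.161. Over both zones 37.9% of regions had a density over 10, and at the ends 318 of 835 (38.1%) did. Regions at the lowest value of 1 were 3.25% over both zones, and 33 of 835 (3.95%) at the ends. Median pileup was 13 tags in both zones. The ratio went below 1 under other widths of the end zone, at 0.946 for 0.5 Mb and 0.929 for 2 Mb. Against the next 1 Mb alone, where the median density was 4.43, the ratio was 1.43. The interval formed in the same way ran from 1.21 to 1.59. It takes regions as independent and the median of the next 1 Mb, from 538 regions, as fixed, so it is too narrow to serve as a test. Within chromosomes the end median was the lower one on 16 of 24, and the ratio ranged from 0.410 on chromosome 24 to 9.33 on chromosome 5, so no direction is given for this level.

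The 48 ends differed widely among themselves. H3K27me3 numbered from 2 to 54 regions per end with a median of 14, against a median of 10 over the 1210 interior windows. The 90th percentile of the windows was 25 regions, which 9.75% of windows and 9 of 48 ends exceeded. H3K27ac numbered from 8 to 64 regions in replicate 1 with a median of 35.5, and from 16 to 84 in replicate 2 with a median of 45.5. The interior windows had medians of 33 and 45. An end had more regions per Mb than the interior of its own chromosome in 30 of 48 cases for H3K27me3, 25 for H3K27ac replicate 1 and 22 for H3K27ac replicate 2. The excess of H3K27me3 was therefore found at most ends, and that of H3K27ac over its whole lists at about as many ends as not. The share of interior windows above the mean of their own chromosome was not computed. The window medians of 10, 33 and 45 lay below the interior means of 12.8, 34.4 and 45.6, so most windows may lie below their mean.

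**Figure D3:**
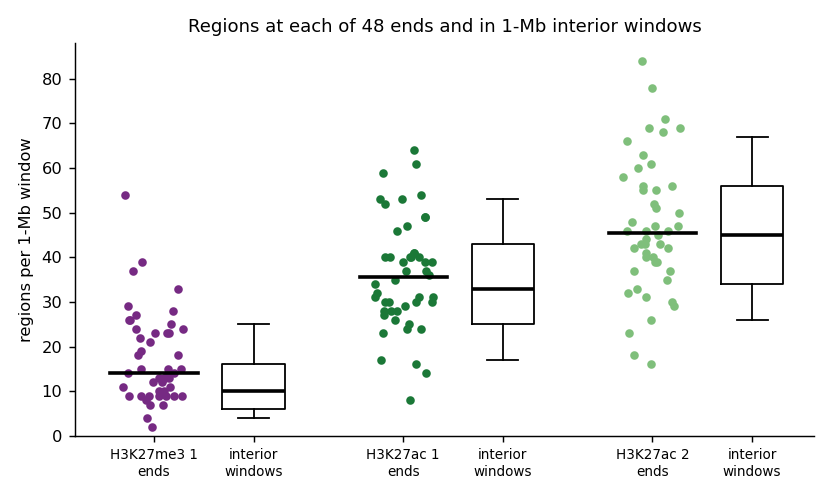
Regions per 1-Mb window (y axis) for each of the 48 ends (points, with a line at their median) and for 1210 interior windows (boxes from the 25th to the 75th percentile with a line at the median, whiskers from the 10th to the 90th percentile), in each library. The H3K27me3 ends have a median of 14 and reach 54, against a window median of 10, while the H3K27ac medians of 35.5 and 45.5 lie beside window medians of 33 and 45.

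The 5 ends with most H3K27me3 regions were the left end of chromosome 16 with 54, the right ends of chromosomes 13 and 5 with 39 and 37, the left end of chromosome 14 with 33 and the right end of chromosome 17 with 29. At the left end of chromosome 16 only 4 of the 54 lay in the outermost 250 kb, and at the right end of chromosome 5 that strip held 26 of the 37. The fewest were 2 at the left end of chromosome 15, 4 at the left end of chromosome 7, 7 each at the left end of chromosome 8 and the right end of chromosome 10, and 8 at the left end of chromosome 17. The interiors of these chromosomes held between 12.2 and 18.1 regions per Mb. The named ends were picked by their counts, so their place above or below that range follows from the choice.

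The 5 ends with most H3K27ac regions were largely others. The left end of chromosome 25 held 64 regions in replicate 1 and 84 in replicate 2, the left end of chromosome 22 held 61 and 71, and the left end of chromosome 2 held 53 and 78. The right end of chromosome 11 held 59 and 66. The left end of chromosome 14, with 54 and 69, was also among the 5 with most H3K27me3. The fewest were 8 and 18 at the left end of chromosome 7, 16 and 16 at the left end of chromosome 3, 17 and 23 at the right end of chromosome 2, 14 and 37 at the left end of chromosome 5, and 24 and 29 at the right end of chromosome 14. Across the 48 ends Spearman's rho was 0.84 between the H3K27ac replicates and 0.27 between their mean and H3K27me3. Across the interior windows it was 0.91 and 0.44. These describe points that share libraries and depth.

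The left end of chromosome 7 was sparse in every library. Its first H3K27me3 region began 393 kb from the end, its first H3K27ac region 685 kb in replicate 1 and 171 kb in replicate 2, the farthest of the 24 left ends in each library. Over all left ends the median distance of the first region was 35.98 kb for H3K27me3, 18.5 kb for H3K27ac replicate 1 and 12.7 kb for H3K27ac replicate 2. The nearest regions lay 1.20, 0.236 and 0.551 kb from the end. On the right the end is by definition the last region of any library, so distances there are no measurement. Left and right ends together held 393 and 442 H3K27me3 regions, 929 and 798 of H3K27ac replicate 1, and 1174 and 1076 of replicate 2. The left end held more H3K27me3 regions than the right on 9 chromosomes and fewer on 14.

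**Figure D4:**
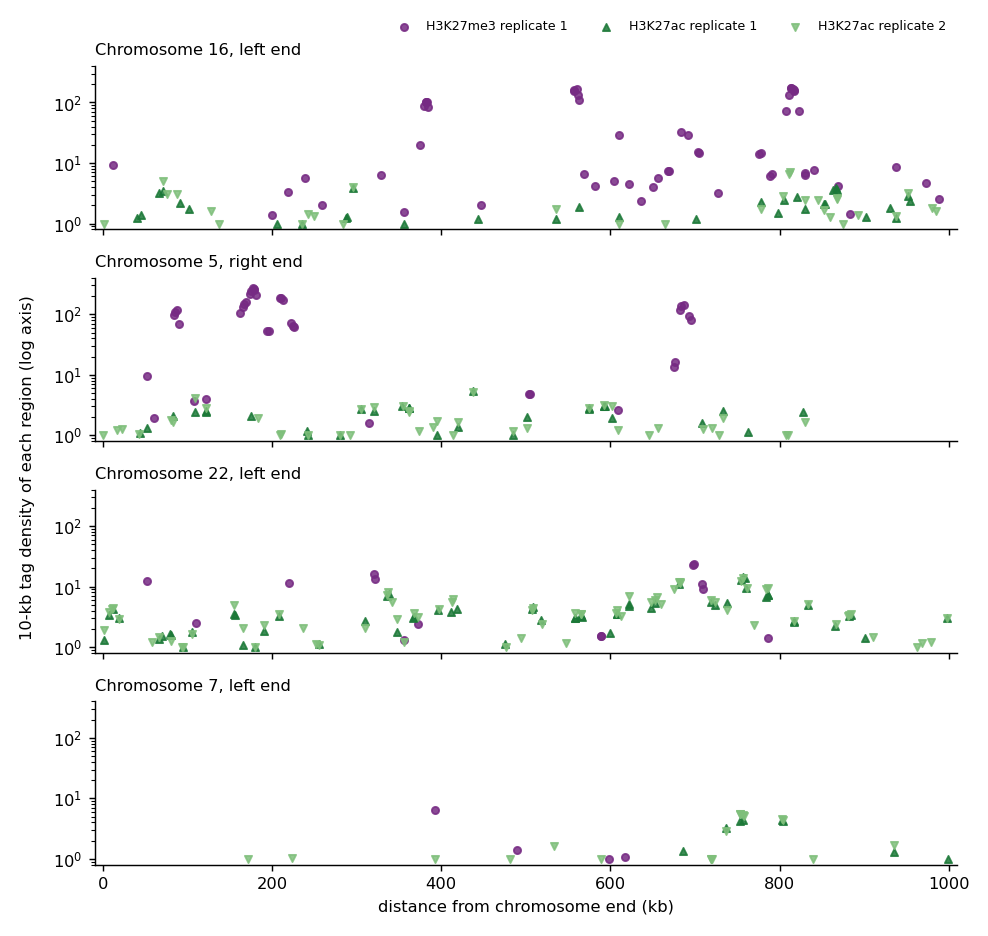
Called regions at 4 ends, by distance from the end in kb (x axis) and 10-kb tag density (y axis, log axis), with 1 point per region and a colour per library. The left end of chromosome 16 and the right end of chromosome 5 have groups of H3K27me3 regions above a density of 100, the left end of chromosome 22 has H3K27ac regions of up to 14.7, and the left end of chromosome 7 has few regions of either mark.

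The highest H3K27me3 levels at the ends were in groups of neighbouring regions. The highest was at chr21:45822773-45823399, 109 kb from the right end, with 5083 tags in the window, a density of 275 and place 37 among the 16409 H3K27me3 regions of both zones. No H3K27ac region lay within 10 kb of it in either replicate. The second, at chr5:72321367-72322218 and 178 kb from the right end, had a density of 268, with 1 H3K27ac region within 10 kb in each replicate, at 2.06 and 1.94. The next 2 were chr2:714982-716606 with 235 and chr14:213338-215320 with 210. The other 4 were chr13:254459-256525 with 181, chr16:813441-813683 with 173, chr16:560260-560830 with 169 and chr10:46909-47836 with 166. The locus at chr16:813441-813683 had the densest H3K27ac beside it, 7.07 in replicate 2 and 2.73 in replicate 1, and at the other 7 loci no H3K27ac region within 10 kb passed 3.34.

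Dense H3K27me3 was found at a larger share of ends than of interior windows. A region with a density over 10 lay at 44 of 48 ends (91.7%) and in 70.7% of windows, over 50 at 21 ends (43.8%) and in 28.4%, and over 100 at 14 ends (29.2%) and in 18.6%. As a share of regions the zones were closer, and their order depended on the cut-off. The shares at the ends and in the interiors were 38.1% and 37.9% over 10 and 22.2% and 24.8% over 20. Over 50 they were 15.6% and 13.9%, and over 100 they were 9.70% and 8.28%. Ends also held more H3K27me3 regions than windows, with medians of 14 and 10, and the shares of ends and windows were not adjusted for this. Of the 81 end regions over 100, 18 lay at the right end of chromosome 5 and 14 at the left end of chromosome 16. Regions of a density over 50 numbered 130, with 27 and 18 at the same 2 ends. The highest density at an end had a median of 33.4 over the 48 ends, with a range from 3.30 to 275.

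H3K27me3 regions joined across gaps of at most 3 kb gave 607 domains at the ends and 11743 in the interiors. Domains of at least 5 regions numbered 11 at the ends, or 22.9 per 100 Mb, and 140 in the interiors, or 11.5 per 100 Mb. The ratio was 1.99, with an exact interval of 0.973 to 3.68 that includes 1. The 11 domains lay on 9 chromosomes and 3 of them lay at the left end of chromosome 16, at chr16:379176-384956, chr16:555935-562812 and chr16:807048-817668. Without that end the ratio was 1.48, with ends of 0.5 Mb 1.05, with ends of 2 Mb 1.34 and with a gap of 10 kb 1.49. It was higher against the next 1 Mb, at 2.75 with an interval of 0.815 to 11.8, on 11 against 4 domains. With a gap of 1 kb it was 4.48 with an interval of 0.841 to 15.5, on 3 against 17 domains. Without the outermost 100 kb it was 2.22 with an interval of 1.08 to 4.09. That setting held the same 11 and 140 domains over a shorter length of end, so its rise came from the length alone. By length under regions the first 3 were chr2:708978-722333 with 6 regions and 5411 bp, chr14:208257-217798 with 4 regions and 4089 bp, and chr10:46909-51746 with 2 regions and 3959 bp. They took places 3, 25 and 32 among 12350 domains of both zones, and none held H3K27ac found in both replicates.

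The highest H3K27ac levels at the ends were modest beside those of the interior. At chr22:756364-756790, 757 kb from the left end, the density was 14.7 in replicate 1 and 14.1 in replicate 2, a mean of 14.4 ± 0.442 (SD, n = 2) and place 442 among the 26522 intervals found in both replicates. The next were chr12:48337260-48337649 with 11.8 ± 0.871, chr6:298301-298385 with 11.5 ± 1.90 and chr6:59409950-59410213 with 9.90 ± 2.39 (each SD, n = 2). The latter had 3 H3K27me3 regions within 10 kb, with densities of up to 33.4. The other 4 were chr3:62088482-62088679 with 9.57, chr11:44976910-44977111 with 9.47, chr10:45238591-45238815 with 9.03 and chr25:941555-942305 with 8.86. Of the H3K27ac regions over a density of 10 at the ends, the left end of chromosome 22 held 4 of 9 in replicate 1 and 5 of 10 in replicate 2.

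H3K27ac clusters had about the same density in both zones, within a wide interval. Intervals found in both replicates and joined across at most 10 kb gave 14 clusters of at least 5 members at the ends, or 29.2 per 100 Mb, and 338 in the interiors, or 27.7 per 100 Mb. The ratio was 1.05 with an exact interval of 0.569 to 1.79, and it went below 1 under 4 other settings, given at the end. The clusters with most length were both on the left end of chromosome 25, chr25:916053-944740 with 7 members and 2872 bp and chr25:329897-360114 with 8 members and 2646 bp, followed by chr19:341682-366324 with 6 members and 2536 bp. They took places 76, 94 and 127 among 17392 clusters. The second held 1 H3K27me3 region, of a density of 3.404, and the others held none.

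The H3K27ac replicates shared a larger part of their regions at the ends. Over both zones 59.3% of replicate 1 regions overlapped a replicate 2 region by at least 1 bp, and 43.1% of replicate 2 regions overlapped one of replicate 1. At the ends 1126 of 1727 regions of replicate 1 did, 65.2% (exact interval 62.9% to 67.4%), against 59.1% in the interiors. For replicate 2 it was 1077 of 2250, 47.9% (45.8% to 49.95%), against 42.9%. In the outermost 250 kb the shares were 70.6% and 50.1%. The difference between ends and interiors averaged 5.57 ± 0.825 percentage points (SD, n = 2).

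Part of that difference went with the mix of significance in the lists. The share rises steeply with −log10 q, and 22.8% and 26.5% of end regions fell in the top quintile of their list, against 19.9% and 19.7% of interior regions. In the top quintile the shares were 97.5% and 95.6% at the ends and 97.6% and 94.4% in the interiors. In the lowest quintile they were 33.3% and 11.7% at the ends and 28.1% and 11.1% in the interiors. Weighted to the interior mix of quintiles, the ends had 62.0% and 43.5%, which leaves 1.77 ± 1.64 (SD, n = 2) of the 5.57 percentage points. The remainder was 2.93 in replicate 1 and 0.605 in replicate 2, so it was about as large as the spread between the replicates. In level the replicates were somewhat less alike at the ends. Over 1162 intervals found in both replicates there, Spearman's rho of the density was 0.93, against 0.96 over 25360 interior intervals, and the SD of the log2 ratio of replicate 2 over replicate 1 was 0.30 against 0.25. Of these intervals 8 at the ends and 2016 in the interiors had a mean density over 10. Both measures depend on level and range, and the zones were not compared at like level. The median density of these intervals was 2.79 at the ends and 4.27 in the interiors, so the lower level was also present in regions found in both replicates.

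**Figure D5:**
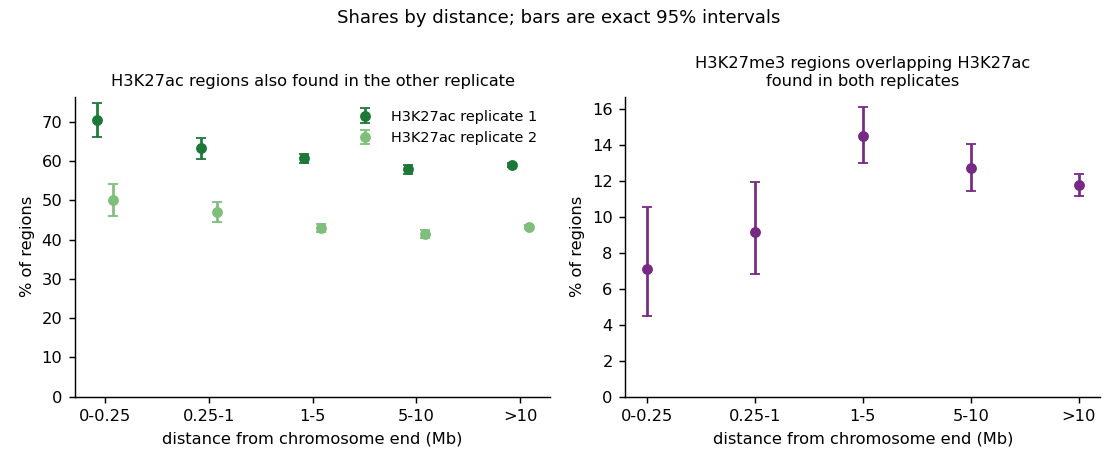
Left, the share of H3K27ac regions also found in the other replicate (y axis, %), by distance from the chromosome end in Mb (x axis). Right, the share of H3K27me3 regions that overlap H3K27ac found in both replicates. Points are shares and bars exact 95% intervals for counting error. Agreement is 70.6% and 50.1% in the outermost 250 kb and 59.03% and 43.3% beyond 10 Mb, and the H3K27me3 share is 7.097% in the outermost 250 kb, 9.14% up to 1 Mb and 14.5% from 1 to 5 Mb.

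A smaller share of H3K27me3 regions overlapped H3K27ac at the ends. Over both zones 12.1% of H3K27me3 regions overlapped H3K27ac found in both replicates. At the ends 70 of 835 did, 8.38% (exact interval 6.59% to 10.5%), against 12.3% (11.8% to 12.8%) in the interiors. The share fell to 7.097% in the outermost 250 kb and was 16.0% in the 1 Mb next to the end zone. With a region of either replicate it was 24.4% at the ends and 28.3% in the interiors, so the direction did not rest on asking for both replicates. At the 48 ends the number of such H3K27me3 regions ranged from 0 to 5.

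Seen from H3K27ac the direction depended on the replicates used. Over both zones 7.57% of the intervals found in both replicates overlapped H3K27me3. At the ends 70 of 1162 did, 6.02% (4.73% to 7.55%), against 7.64% in the interiors. In replicate 1 alone it was 6.31% at the ends and 6.55% in the interiors. In replicate 2 alone the direction turned, with 7.51% and 6.53%. With H3K27ac of either replicate it turned as well, with 7.39% at the ends and 6.14% in the interiors, a ratio of 1.20 with an exact interval of 1.05 to 1.37, so no direction is given from the side of H3K27ac. Shared length was 15222 bp at the ends, 3.10% of H3K27ac found in both replicates and 3.39% of H3K27me3, against 4.46% and 5.78% in the interiors.

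The gap between the zones was largest in H3K27me3 regions of middle density, on small counts. With regions sorted into quintiles by density, the least dense quintile overlapped H3K27ac in 18.8% of cases at the ends and 19.9% in the interiors, and the densest quintile in 7.28% and 5.81%. In the 3 quintiles between them the shares were 7.02%, 3.13% and 5.85% at the ends against 14.3%, 11.3% and 10.1% in the interiors. The middle quintile at the ends was 5 of 160 regions, with an exact interval of 1.02% to 7.14%. The quintiles on either side of it were 12 and 11 regions, with intervals of 3.68% to 11.9% and 2.96% to 10.2%. The latter interval includes the interior share. For the least dense and the densest quintile the intervals were 13.1% to 25.6% and 3.69% to 12.7%, too wide to exclude a gap there. From the side of H3K27me3 the shorter distances were longer at the ends. An H3K27me3 region lay a median of 13.99 kb from H3K27ac found in both replicates at the ends and 10.8 kb in the interiors, and 28.5% against 36.3% lay within 5 kb. From H3K27ac to the nearest H3K27me3 the median was 29.8 kb at the ends and 30.2 kb in the interiors, and 18.8% against 21.0% lay within 5 kb.

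Of 2054 pairs of overlapping H3K27ac and H3K27me3 in both zones, 73 lay at the ends. The pair whose weakest −log10 q ranked best of all 2054 was at an end, at chr17:53383425-53383883 and 71.0 kb from the right end. In H3K27ac replicate 2 the summit there held 84 of the 199 tags of the window, 42.2%, and in H3K27me3 it held 66 of 286, 23.1%. Each of the 3 libraries had its highest end fold at this interval. Those folds were 12.1 (H3K27ac replicate 1), 17.1 (H3K27ac replicate 2) and 9.97 (H3K27me3). The highest interior folds were 12.4, 13.6 and 16.3 in that order, so only the value of replicate 2 exceeded its interior. Why the same interval led the ends for both antibodies was not tested. The next end pair, chr3:62628306-62628537, came in place 46 and lay 0.131 kb from the last region of its chromosome. Its density was at the lowest value of 1 in both H3K27ac replicates and 2.11 in H3K27me3. Its H3K27ac windows thus held no more tags than the genome-wide number. A 10-kb window there reaches past the last region and may be cut short by the chromosome end, which was not examined. The same limit holds for all regions within 5 kb of an end. These were 14 of 835 for H3K27me3, and 15 of 1727 and 25 of 2250 for replicates 1 and 2 of H3K27ac. The pair at chr6:59503959-59504726, in place 54, was dense in both marks, with 7.34 ± 0.903 (SD, n = 2) in H3K27ac and 26.3 in H3K27me3.

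The remaining named pairs had various levels of both marks. For scale, the median H3K27ac density of intervals found in both replicates was 2.79 at the ends and 4.27 in the interiors. At chr25:329988-330408 the densities were 3.802 ± 0.0443 (SD, n = 2) in H3K27ac and 3.404 in H3K27me3, inside the second of the clusters above. At chr21:206075-206246 they were 1.65 ± 0.0927 and 5.73 (SD, n = 2). The intervals chr25:36492512-36492658 and chr25:36492740-36492903 share 1 H3K27ac region of 4.56 ± 0.0768 (SD, n = 2), and their H3K27me3 densities were 69.3 and 69.2. That pair lies within a domain of 5 H3K27me3 regions at the inner edge of the end zone, 998 kb from the right end. At chr24:41656491-41656731 the densities were 4.48 ± 1.04 (SD, n = 2) and 14.3.

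The share of a window's tags that lay at the summit was also compared. No peak at the ends had a computed share of 50% or more of the tags of its 10-kb window at the summit. This covers 2140, 3112 and 1229 peaks of H3K27ac replicates 1 and 2 and H3K27me3. For peaks at the lowest density of 1, the window was given the genome-wide number of tags. At the ends these were 118, 375 and 33 peaks in the same order. Their windows can hold fewer tags, so their shares are lower bounds and 50% is not excluded for them. The highest shares there were 45.0%, 42.2% and 43.8%. In the interiors, counted the same way, 4 peaks of H3K27me3 reached 50% and none of H3K27ac did. The median share was 12.5% at the ends and 10% in the interiors in H3K27ac replicate 1, 10.9% and 9.09% in replicate 2, and 10% in both zones in H3K27me3. Among peaks of at least 20 tags the highest H3K27me3 share was at position 49153800 of chromosome 12, with 31 of 120 tags or 25.8%, only 0.517 kb from the last region. In H3K27ac replicate 1 it was at position 59021827 of chromosome 1, with 20 of 56 tags or 35.7%. The window on chromosome 12 may be cut short by the chromosome end. Mappability and copy number of these positions were not analysed here.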

How the data were processed

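CUT&RUN peak lists of 3 libraries from wild-type posterior trunk were used, grouped by antibody and replicate as the sample titles give them. Tools named in the submitters' processing notes, without role or order, are MACS2 2.2.7.1, Bowtie2 2.4.5, Picard 3.0.0, cutadapt 4.1, SAMtools 1.16.1 and bedtools 2.30.0, and danRer11 is the build named there. Their settings and any control library are not given in the sources used. Each library has its own deposited list. Per peak it holds a score, a fold (the ratio of summit pileup to local background) and a p-value and q-value that the authors' peak caller gave on the −log10 scale. The authors' fold, score and q-value only describe or rank peaks within a list. The lowest −log10 q of each list was 1.30, equal to a threshold of 0.05.

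The pileup and the local background of a peak were solved from the deposited fold and p-value. MACS2 defines the fold as pileup + 1 over background + 1, with a Poisson p-value. The solution matched the −log10 p of every deposited line to within 0.001. Local backgrounds were multiples of 0.02, which was read as 1 tag of 200 bp in a window of 10 kb. No label states this reading. For 355 lines of H3K27me3, 24 of them at the ends, several solutions were possible and the closest one was kept. A merged region keeps its highest values. The solving and overlap steps were tested on simulated data and recovered what was put in, which tests their arithmetic only.

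H3K27ac found in both replicates is what the regions of both lists share in bp, and any shared bp counts as overlap. Shares have Clopper-Pearson 95% intervals. Members and lists were chosen with earlier results of these data known. Named items are the 5 ends with most and fewest regions per mark, the 8 densest loci per mark at least 200 kb apart, and the 8 pairs of both marks with the best lower rank of −log10 q. They also include the 3 domains and 3 clusters with most bp, the 3 peaks per library with the highest summit share at a pileup of at least 20, and the first region of each end. Alternatives changed the threshold, the width of the ends, the interior, the overlap, the gaps and the replicates. Chromosome 4, unplaced scaffolds and the mitochondrial genome were left out, and gene annotation was not used here. The software was matplotlib 3.10.9, scipy 1.17.1, pandas 2.3.3 and numpy 2.4.6 under Python 3.11.15.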

Additional observations from a re-analysis of the deposited data

Results flagged for a closer look

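The H3K27ac libraries and the H3K27me3 library lay on different sides of 0 in 10-kb tag density. Its median at the ends over that of the interiors, on the log2 scale, was -0.50 in replicate 1 of H3K27ac and -0.48 in replicate 2. Both libraries were thus lower at the ends, while the value of 0.063 in the H3K27me3 library was close to 0, and the interval of that ratio includes no change. The difference between the marks was not tested, since H3K27me3 has 1 library, and the H3K27me3 value turned direction under other settings, so no opposite shift of the marks is shown.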

How the results depend on the processing

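Under other settings 65 values kept their direction and stayed within the spread or interval of the reported value, 33 moved and 10 turned direction, and the cause was not tested. The 65 include some that could hardly change. One is the count of end peaks with most window tags at the summit, which was 0 in every setting and has no direction. Another is H3K27me3 region density with equal numbers of regions, where its list was not cut. Ratios here are ends over interior, and agreement of the H3K27ac replicates is the difference in percentage points. With a −log10 q of at least 5, region density was 1.47 for H3K27me3 (2.36 in the outermost 250 kb) and 1.22 for H3K27ac. Tag density was then 0.874 (turned) and 0.624. Agreement was 3.99 ± 3.09 (SD, n = 2), with 6.18 in replicate 1 and 1.80 in replicate 2. H3K27ac clusters had a ratio of 0 (turned), with fewer regions left to join. With ends of 0.5 Mb, region density was 1.48 and 1.11, tag density 0.946 (turned) and 0.762, and agreement 8.73. With ends of 2 Mb, region density was 1.11 and 1.01, tag density 0.929 (turned) and 0.693, agreement 3.55 and the share of H3K27me3 with H3K27ac 0.935. Without the outermost 100 kb, H3K27ac region density was 1.01 and its clusters 0.918 (turned). Against the interior beyond 5 Mb, H3K27ac region density was 1.02 and tag density 0.673. Against the next 1 Mb, region density was 1.55 and 1.05, tag density 1.43 and 1.04 (turned for H3K27ac), agreement 4.25, the share of H3K27me3 with H3K27ac 0.524 and clusters 0.778 (turned). H3K27ac region density was 1.02 without the end with most regions and 1.24 with equal numbers of regions from each list. Agreement in the latter was 4.69 ± 2.74 (SD, n = 2), with 6.62 in replicate 1 and 2.75 in replicate 2. The mean H3K27ac tag density gave 0.674. A 50% reciprocal overlap gave an agreement of 3.38 and ratios of 0.353 and 0.294 for overlap from H3K27ac and from H3K27me3. With H3K27ac in either replicate these were 1.20 (turned) and 0.864. Leaving out H3K27ac replicates 2 and 1 in turn gave 0.964 and 1.15 (turned) from H3K27ac, against 0.788 with both. From H3K27me3 the range was 0.760 to 0.848, for region density 1.03 to 1.04 and for tag density 0.708 to 0.719. A gap of 1 kb gave a ratio of 4.48 for H3K27me3 domains, and a gap of 5 kb gave 0 (turned) for H3K27ac clusters. Chosen after seeing the data, the interior mix of −log10 q gave an agreement of 1.77 ± 1.64 (SD, n = 2). Leaving out the 5 ends with most H3K27me3 in the outermost 250 kb, also chosen then, gave a region density of 1.57 for that strip. No paired analysis was possible because the antibody groups share only replicate number 1. Ends and interiors were compared within each library, and no test was run on those ratios. H3K27me3 has 1 library and the least depth, so its values have no replicate check.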
